A study of Homo sapiens with 6 samples.

Results

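PEA15 encodes a small protein made largely of a death effector domain, a fold through which proteins of the death receptor pathway bind each other. The members described here are PEA15 and 8 genes whose proteins bind it or belong to the same signalling assemblies: the kinases MAPK3 (ERK1) and RPS6KA3 (RSK2), the phospholipase PLD1, and FADD, CASP8, CASP10, CFLAR and RIPK1. The genes were chosen with earlier results of these data known. Their probes were taken by gene symbol alone, as every array probe that the platform's gene table gives to 1 of the 9 genes. This found 16 of the 47323 probes on the array, for 8 of the 9 genes, and 11 of the 16 were detected above background and could be tested. No probe is listed for RIPK1 in that table, so it is not analysed here.

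The cells were HCT116, an established line from a human colorectal carcinoma, in 3 groups of 2 arrays. All 6 samples carried a stably expressed short hairpin RNA (shRNA), which cells process into a small RNA that lowers a matching messenger RNA: a non-silencing hairpin (NS shRNA) in the controls, and PEA15 shRNA #1 or PEA15 shRNA #2, each aimed at PEA15, in the other two groups. Each hairpin was thus compared with cells that also express a hairpin, and no cells without a hairpin are part of the comparison. Replicates are numbered in the labels with no word on whether each was its own culture, so the spread behind every p-value may be technical.

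As background, PEA15 binds ERK kinases and holds them in the cytoplasm, away from their nuclear targets, and it also binds RSK2, a kinase that ERK activates. When protein kinase C and then CaMKII or AKT phosphorylate it, PEA15 binds FADD instead and hinders the assembly that activates caspase-8 at death receptors. It has also been found to bind phospholipase D1. The arrays measure RNA, and neither protein amounts nor binding.

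Between 41.1% and 43.0% of probes were detected on each array, and 19781 probes entered the tests. Levels are log2 values after background correction and quantile normalization, and differences are in the same log2 unit with limma's standard error (SE). The label of the cells was set against marker genes: 7 of 11 epithelial markers were detected on all 6 arrays, among them EPCAM, CDH1 and KRT8, and CDX1, LGALS4 and VIL1 on none. The endothelial markers PECAM1, CDH5, VWF and KDR and the leukocyte markers PTPRC, CD3D and CD3E were detected on none, while CD14 and LYZ were detected on all 6. Of 7 fibroblast and mesenchymal markers, VIM and COL1A1 were detected on all 6 arrays and COL1A2, COL3A1, LUM and PDGFRB on none. Across the tested probes r was 0.994 to 0.995 within groups and 0.988 to 0.993 between arrays of different groups.

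PEA15, the target of both hairpins, was lower with either hairpin than in the controls. Its single listed probe, ILMN_1771376, had log2 levels of 8.97 and 9.15 with NS shRNA, 8.22 and 8.17 with PEA15 shRNA #1, and 7.71 and 7.93 with PEA15 shRNA #2. The order was NS shRNA, then shRNA #1, then shRNA #2, and no 2 groups overlapped. The deposited signals, before any correction, were 561 and 633 for the controls, 356 and 391 for shRNA #1, and 294 and 346 for shRNA #2, with detection p-values of 0 on all 6 arrays.

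**Figure D1:**
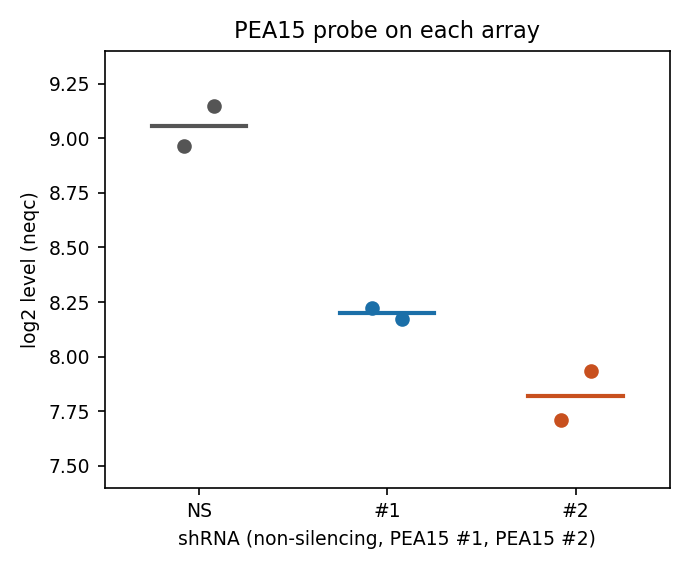
Log2 level of the PEA15 probe (vertical axis) on each of the 2 arrays of the 3 groups (points), with group means as bars. The controls lie at 8.97 and 9.15, both arrays of shRNA #1 near 8.2, and those of shRNA #2 at 7.71 and 7.93.

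With shRNA #2 the PEA15 level fell by 1.23 ± 0.12 (log2 difference and SE, 2 arrays in each group, limma adjusted p = 0.00633). The ratio to the control was 0.425, with a 95% interval from 0.349 to 0.517. It was the fourth lowest log2 difference of the 19781 probes. With shRNA #1 the difference was -0.86 ± 0.12, or 0.552 of the control (interval 0.454 to 0.672), and over all probes it missed the threshold (limma adjusted p = 0.149). Set against shRNA #1, the level with shRNA #2 was 0.770 (interval 0.633 to 0.937), a difference of -0.38 ± 0.12 that did not pass (limma adjusted p = 0.129). Leaving out NS shRNA replicate 1 (adjusted p = 0.0596), NS shRNA replicate 2 (0.0861) or PEA15 shRNA #2 replicate 1 (0.0729) ended the call for shRNA #2. Its adjusted p spanned 6.75e-07 to 0.0861 when 15 alternatives were tried. Of 15 alternatives, 4 put the shRNA #1 difference past the threshold (its adjusted p spanned 0.000306 to 0.408) and 4 the difference between hairpins (0.0311 to 0.389).

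Taking the mean of both hairpins against the control, PEA15 had the lowest log2 difference of all 19781 probes. It fell by 1.05 ± 0.11, a ratio of 0.484 (interval 0.409 to 0.574, limma adjusted p = 0.0192, n = 4 arrays against 2). This comparison shares its control arrays with the preceding ones and is not independent of them. The call was lost without any 1 of the 6 arrays, with no detection filter (limma adjusted p = 0.0684) and with a replicate block (0.0637). The size stayed between -1.14 and -0.84 over 15 alternatives.

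None of the partner genes passed the test in any comparison, and PEA15 was the single member that did. Of the 11 member probes tested, 0 passed with shRNA #1, 1 with shRNA #2, 0 between hairpins and 1 with the mean of both hairpins. Over all probes the share that passed was 0.0152%, 1.41%, 2.95% and 0.106% in the same order, and the share that passed as lower, like PEA15, was 0.379% with shRNA #2 and 0.0253% with the mean of both. At an unadjusted p under 0.05 (limma) the member probes numbered 2, 1, 2 and 2, where all probes gave 11.4%, 17.7%, 22.2% and 11.8%. The arrays of the groups compared did not overlap for 5, 6, 5 and 2 of the 11 probes, against 41.9%, 49.7%, 53.3% and 16% of all probes. The median difference of the 10 partner probes was -0.05 with shRNA #1 and -0.06 with shRNA #2, beside medians of -0.0019 and -0.0090 over all probes.

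The confidence intervals give the size of change that these arrays leave possible for the partners. Over the 10 partner probes the lowest bound of any 95% interval was -0.57 with shRNA #1 and -0.58 with shRNA #2, and the highest 0.64 and 0.56. A fall as large as that of PEA15 in the same comparison (-0.86 and -1.23) lies outside all 10 intervals for either hairpin. For RPS6KA3 ILMN_1770822 and ILMN_1652736 (control means 5.14 and 5.48), such a fall would end below the lowest detected level (4.80 to 4.86). The same holds for CASP8 ILMN_2377733 (5.94) with shRNA #2. So near background a fall of that size could not be measured in full, and the intervals of these probes cannot decide it. These intervals are not adjusted for the number of probes.

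**Figure D2:**
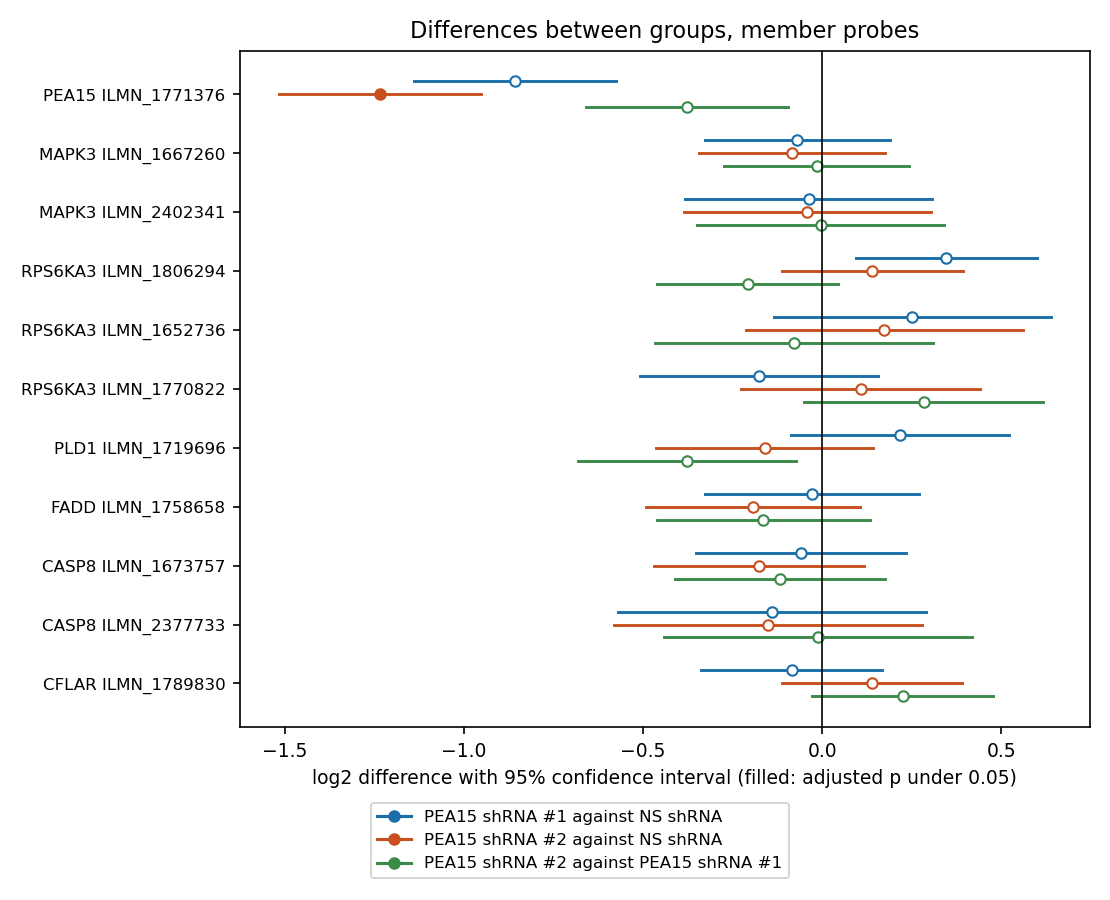
Log2 difference (horizontal axis) of the 11 tested member probes in 3 comparisons, with unadjusted 95% confidence intervals. Filled points passed the limma test at an adjusted p of 0.05: the one filled point is PEA15 with shRNA #2 (-1.23), and the partner points lie between -0.38 and 0.35.

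MAPK3 encodes ERK1, one of the kinases that PEA15 holds in the cytoplasm. Its probe ILMN_1667260 had log2 levels of 9.24 and 9.14 with NS shRNA, 9.22 and 9.03 with shRNA #1, and 9.10 and 9.12 with shRNA #2. The spread within shRNA #1 was wider than any difference between group means. Differences from the control were -0.07 ± 0.11 with shRNA #1 (limma adjusted p = 0.867) and -0.08 ± 0.11 with shRNA #2 (adjusted p = 0.742). The second probe, ILMN_2402341, which the table gives to another transcript of the gene (NM_001040056), read 8.28 and 8.43, then 8.51 and 8.12, then 8.39 and 8.24. Its groups overlapped throughout, with differences of -0.04 ± 0.15 with either hairpin. The 95% interval with shRNA #2 ran from -0.34 to 0.18 for the first probe and from -0.39 to 0.30 for the second.

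RPS6KA3 encodes RSK2, a kinase downstream of ERK that PEA15 also binds. It has 4 listed probes, all given to 1 transcript, and they did not move alike. The probe ILMN_1806294 read 7.15 and 7.23 with NS shRNA, 7.44 and 7.63 with shRNA #1, and 7.33 and 7.33 with shRNA #2, so that all 4 PEA15 shRNA arrays lay above both controls. Its difference was 0.35 ± 0.11 with shRNA #1 (limma adjusted p = 0.308, 95% interval 0.09 to 0.60), 0.14 ± 0.11 with shRNA #2 (adjusted p = 0.554) and 0.24 ± 0.09 with the mean of both (adjusted p = 0.368). These did not pass, though the difference for shRNA #1 stayed between 0.23 and 0.44 over 15 alternatives.

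The other RPS6KA3 probes lay nearer the lowest detected level of the arrays, which was 4.80 to 4.86. ILMN_1652736 read 5.36 and 5.59, then 5.52 and 5.94, then 5.76 and 5.54 in the same order of groups, with overlap and with differences of 0.25 ± 0.17 and 0.17 ± 0.17. ILMN_1770822 read 5.18 and 5.11, then 5.00 and 4.94, then 5.05 and 5.45, and its difference with shRNA #1 was -0.18 ± 0.14, opposite in sign to the other two (limma adjusted p = 0.705). The fourth, ILMN_1772019, was detected on 0 of 6 arrays. No direction can therefore be given for the gene as a whole.

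PLD1 encodes phospholipase D1, which makes the signalling lipid phosphatidic acid. Its probe ILMN_1719696 read 6.14 and 5.94 with NS shRNA, 6.27 and 6.25 with shRNA #1, and 6.02 and 5.74 with shRNA #2. The shRNA #1 arrays lay above both controls, and the shRNA #2 arrays overlapped the controls and lay below both shRNA #1 arrays. The difference between the hairpins was -0.38 ± 0.13 (95% confidence interval -0.68 to -0.07), which did not pass over all probes (limma adjusted p = 0.148, range 0.119 to 0.456 over 15 alternatives). Against the control it was 0.22 ± 0.13 with shRNA #1 (adjusted p = 0.590) and -0.16 ± 0.13 with shRNA #2 (adjusted p = 0.575).

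**Figure D3:**
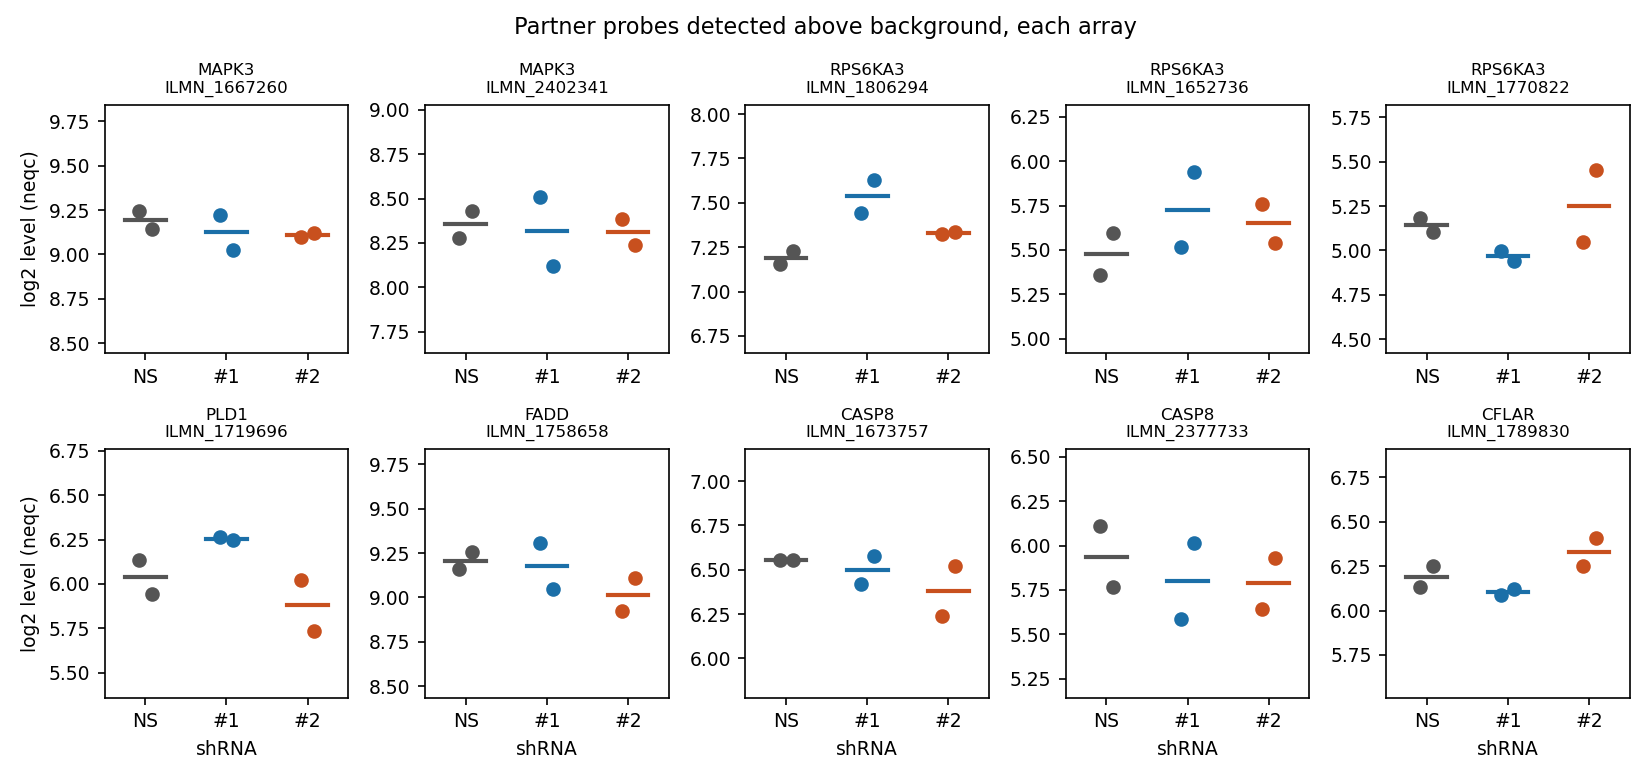
Log2 level (vertical axis, each panel spanning the same range of 1.4) of the 10 tested partner probes on each array (points), with group means as bars. Within most panels the 2 arrays of a group lie as far apart as the group means; RPS6KA3 ILMN_1806294 and PLD1 show the widest steps between groups.

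FADD is the adaptor that links death receptors to caspase-8 through its death effector domain. Its probe ILMN_1758658 read 9.16 and 9.25 with NS shRNA, 9.31 and 9.05 with shRNA #1, and 8.92 and 9.11 with shRNA #2. Both shRNA #2 arrays lay below both controls, with a difference of -0.19 ± 0.13 (limma adjusted p = 0.483, 95% interval -0.49 to 0.11). With shRNA #1 the groups overlapped, at -0.03 ± 0.13 (adjusted p = 0.958).

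CASP8 encodes caspase-8, the initiator protease of death receptor signalling, and has 4 listed probes, each given to a different transcript. ILMN_1673757 read 6.56 and 6.56 with NS shRNA, 6.42 and 6.58 with shRNA #1, and 6.24 and 6.52 with shRNA #2. The shRNA #2 arrays lay below both controls without passing, at -0.18 ± 0.13 (limma adjusted p = 0.517). ILMN_2377733 read 6.11 and 5.77, then 5.59 and 6.01, then 5.64 and 5.93, and all 3 groups overlapped, with differences of -0.14 ± 0.19 and -0.15 ± 0.19. The remaining probes, ILMN_1787749 and ILMN_1809313, were detected on 0 of 6 arrays each.

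CFLAR encodes c-FLIP, a relative of caspase-8 that lacks protease activity and restrains or tunes its activation. Its probe ILMN_1789830 read 6.13 and 6.25 with NS shRNA, 6.09 and 6.12 with shRNA #1, and 6.25 and 6.41 with shRNA #2. The shRNA #1 arrays lay below both controls and the shRNA #2 arrays above them, with differences of -0.09 ± 0.11 (limma adjusted p = 0.829) and 0.14 ± 0.11 (adjusted p = 0.553). The difference between hairpins, 0.22 ± 0.11, did not pass (95% confidence interval -0.03 to 0.48, adjusted p = 0.274).

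CASP10 encodes caspase-10, a close relative of caspase-8, and neither of its probes passed the detection filter. ILMN_1797578 was detected on 3 of 6 arrays, 1 in each group. Its levels were 4.76 and 4.87 with NS shRNA, 5.21 and 4.76 with shRNA #1, and 4.75 and 5.04 with shRNA #2, and the groups overlapped. ILMN_2321720 was detected on 0 of 6 arrays. In the RefSeq annotation CFLAR, CASP10 and CASP8 are consecutive protein-coding genes on chromosome 2, and of these 3 neighbours CFLAR and CASP8 were detected on all 6 arrays through at least 1 probe. In these bulk samples, fewer cells making a transcript and less transcript per cell cannot be told apart.

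**Figure D4:**
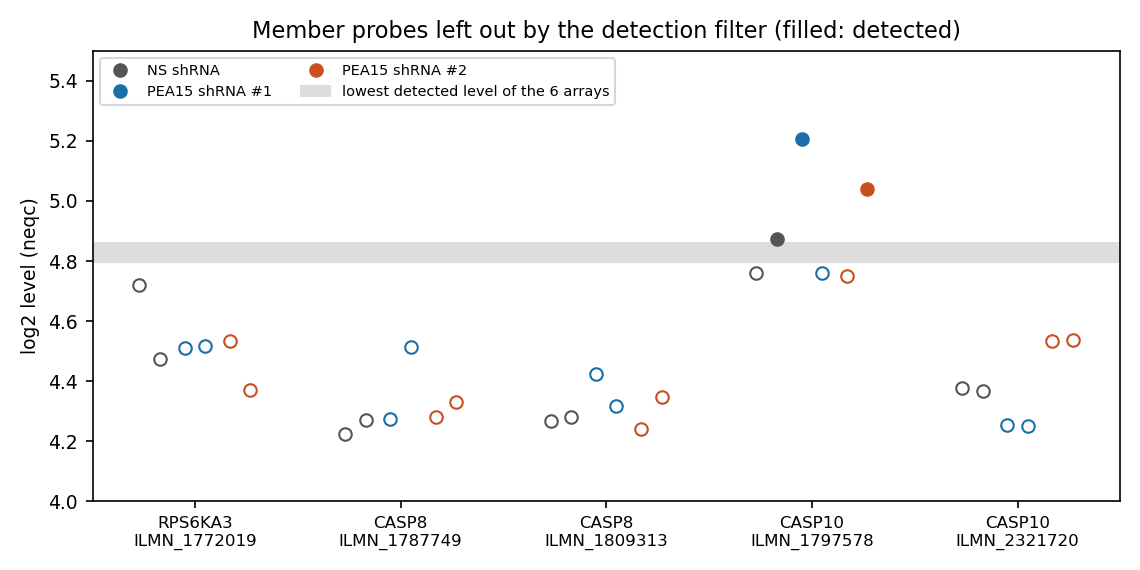
Log2 level (vertical axis) of the 5 member probes left out by the detection filter, on each array. Open points were not detected; the grey band spans the lowest detected level of the 6 arrays (4.80 to 4.86), and the 3 filled points belong to CASP10 ILMN_1797578.

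The genes around the members were described from lists of the same pathways, and the counts at an unadjusted p under 0.05 stand beside the shares of all probes given above. Of the 27 probes named from these lists other than those of RBCK1, 0 passed in the setting reported, and 11 passed in at least 1 comparison under an alternative. For the ERK cascade, 25 probes of 18 genes were tested and 0 passed in any of the 4 comparisons (limma, unadjusted p under 0.05 for 1 probe with shRNA #1, 4 with shRNA #2, 5 between hairpins and 1 with the mean of both). The list medians were 0.01 with shRNA #1 and -0.07 with shRNA #2. RPS6KA5, which encodes the ERK-activated nuclear kinase MSK1, was at 0.60 ± 0.18 with shRNA #2 (adjusted p = 0.146) and -0.02 ± 0.18 with shRNA #1. RPS6KA1, which encodes RSK1, of the same family as RSK2, read 7.61 and 7.94 with NS shRNA, 7.96 and 8.01 with shRNA #1, and 7.61 and 7.31 with shRNA #2. Its difference between hairpins was -0.52 ± 0.15 (adjusted p = 0.101), and those of the related kinase RPS6KA4 and of the ERK-activated kinase MKNK2 were -0.37 ± 0.10 and -0.31 ± 0.10 (MKNK2 probe ILMN_2347068, with -0.17 on ILMN_1654060), none of which passed.

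Among 17 probes of 13 death receptor, ligand and adaptor genes, 0 passed in the 4 comparisons (limma, unadjusted p under 0.05 for 2, 3, 5 and 2 probes). The list medians were 0.0015 with shRNA #1 and 0.12 with shRNA #2. TNFRSF21, which encodes death receptor 6, was at -0.53 ± 0.12 with shRNA #2 (adjusted p = 0.0868), and 4 of 15 alternatives put it past the threshold (0.00108 to 0.291). TNFRSF10B, a receptor for the death ligand TRAIL, had 3 tested probes that did not share a sign with shRNA #2: -0.12 ± 0.11 for ILMN_1812915, 0.39 ± 0.10 for ILMN_1699265 and 0.43 ± 0.14 for ILMN_2331010. The adaptor TRAF1 was not detected on either shRNA #1 array. With that group set at the lowest detected level, TRAF1 was 1.14-fold higher with shRNA #2, without passing (adjusted p = 0.0833). The confidence interval of its measured ratio to shRNA #1 ran from 1.13 to 1.64. Between hairpins the decoy receptor TNFRSF10C was at 0.30 ± 0.14 (adjusted p = 0.247).

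Other death effector and caspase recruitment domain proteins gave 19 tested probes of 11 genes, of which 0 passed in the 4 comparisons (limma, unadjusted p under 0.05 for 0, 6, 5 and 2 probes). The 6 probes with shRNA #2 are 31.6% of the list, beside 17.7% of all probes. With shRNA #2, 1 of the 19 lay above 0 (5.26%, beside 48.3% of all probes) and the median was -0.22, beside -0.0090 over all probes. With shRNA #1, 7 of 19 lay above 0 (36.8%, beside 49.5%) and the median was -0.07. DEDD2, a nuclear protein with a death effector domain, read 9.50 and 9.58 with NS shRNA, 9.38 and 9.49 with shRNA #1, and 9.15 and 9.02 with shRNA #2, a difference of -0.46 ± 0.11 with shRNA #2 (adjusted p = 0.0876). For DEDD2 4 of 15 alternatives passed (adjusted p spanning 0.00271 to 0.288). For its relative DEDD the probe ILMN_1710710 was not detected on either shRNA #2 array. With that group set at the lowest detected level, this probe was 1.13-fold lower than the control, without passing (adjusted p = 0.174). The confidence interval of its measured ratio to the control ran from 0.682 to 0.947. The DEDD probe ILMN_2313074 was at -0.02 ± 0.10 with shRNA #2. Another DEDD probe, ILMN_1699711, read 7.04 and 6.97 with NS shRNA and 6.88 and 6.69 with shRNA #2. The difference between hairpins was -0.40 ± 0.10 for HIP1 and -0.45 ± 0.12 for CASP2 probe ILMN_2296057 (limma adjusted p = 0.0761 and 0.0814). CASP2 probe ILMN_2410540 was at 0.0086 ± 0.0990. Another CASP2 probe, ILMN_1736568, read 8.78 and 8.77 with shRNA #1 and 8.57 and 8.65 with shRNA #2.

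The list around RIPK1, of ubiquitin ligases, deubiquitinases and necroptosis genes, held the calls made among the pathway genes. RBCK1, which encodes HOIL-1, a subunit of the complex that adds linear ubiquitin chains to RIPK1 and other proteins, was higher with shRNA #2 on both of its probes. ILMN_1751330 read 7.74 and 7.84 with NS shRNA, 7.94 and 7.87 with shRNA #1, and 8.45 and 8.48 with shRNA #2. The shRNA #2 arrays lay above the other 4, and the rise was 0.68 ± 0.10 or 1.60-fold (limma adjusted p = 0.0273, n = 2 arrays a group, 95% interval of the fold 1.36 to 1.89). ILMN_2406313 read 6.95 and 6.94, then 6.89 and 6.70, then 7.59 and 7.50, a rise of 0.60 ± 0.11 or 1.52-fold with shRNA #2 (adjusted p = 0.0488).

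With shRNA #1 the RBCK1 probes were at 0.12 ± 0.10 and -0.15 ± 0.11, without passing. Between the hairpins RBCK1 was higher with shRNA #2 by 0.56 ± 0.10 and 0.75 ± 0.11 (limma adjusted p = 0.0348 and 0.0173). All 4 of these RBCK1 calls were lost without any 1 of the 6 arrays (adjusted p = 0.0506 to 0.204), and over all alternatives their adjusted p ran from 0.000191 to 0.204. RBCK1 accounted for 2 of the 17 probes of this list that passed with shRNA #2 and for 2 between hairpins, where all probes gave 1.03% and 1.74% higher. The list medians were 0.09 with shRNA #2 and -0.03 with shRNA #1. TNIP1, a partner of the deubiquitinase A20, was at -0.30 ± 0.12 with shRNA #1 and 0.22 ± 0.12 with shRNA #2, and its difference between hairpins, 0.52 ± 0.12, did not pass (adjusted p = 0.0644). With shRNA #2 the kinase subunit IKBKB was at 0.17 ± 0.13. The nucleic acid sensor ZBP1 was not detected on either control array. With the controls set at the lowest detected level, ZBP1 was 1.12-fold higher with shRNA #2, without passing (adjusted p = 0.239). The confidence interval of its measured ratio to the control ran from 1.02 to 1.45.

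Downstream of caspase-8, 22 probes of 11 genes were tested and 0 passed in the 4 comparisons (limma, unadjusted p under 0.05 for 1, 3, 4 and 3 probes). The list medians were -0.03 with shRNA #1 and -0.12 with shRNA #2. BID, the protein that caspase-8 cleaves to engage mitochondria, came closest: its probe ILMN_1763386 read 8.59 and 8.62 with NS shRNA, 8.50 and 8.48 with shRNA #1, and 8.09 and 8.06 with shRNA #2. The difference with shRNA #2 was -0.53 ± 0.10 (adjusted p = 0.0505), which passed in 6 of 15 alternatives (0.00138 to 0.203). The other BID probes gave -0.39 ± 0.11 for ILMN_2372413 and 0.19 ± 0.20 for ILMN_2259495. The executioner caspase CASP6 differed between hairpins by -0.45 ± 0.13 on probe ILMN_1659350 (adjusted p = 0.110), by -0.36 ± 0.11 on ILMN_2367113 and by 0.08 ± 0.25 on ILMN_1694877. With shRNA #2 CASP9, the initiator of the mitochondrial route, was at 0.16 ± 0.13 on ILMN_1718070 and at -0.08 ± 0.15 on ILMN_1786046. The 3 probes of DFFA, the inhibitor of the apoptotic nuclease, lay between -0.28 and -0.08.

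Beside PLD1, 16 probes of 12 genes for other phospholipase D proteins and activators were tested, and 0 passed in the 4 comparisons (limma, unadjusted p under 0.05 for 1, 1, 4 and 0 probes). The list medians were 0.08 with shRNA #1 and -0.03 with shRNA #2. PLD6, a mitochondrial member of the family, was at 0.30 ± 0.11 with shRNA #1 on probe ILMN_1731518 (limma adjusted p = 0.348). Its brighter probe ILMN_3240586 read 8.79 and 8.94 with NS shRNA and 9.08 and 8.87 with shRNA #1, with overlap. PLD4 was not detected on either shRNA #2 array. With that group set at the lowest detected level, PLD4 was 1.18-fold lower than the control, without passing (adjusted p = 0.230). The confidence interval of its measured ratio to the control ran from 0.590 to 0.966. The lipid kinase PIP5K1C and the GTPase RALB differed between hairpins by -0.27 ± 0.11 and -0.29 ± 0.11, without passing.

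Of the kinases that phosphorylate PEA15, 13 probes of 9 genes were tested and 0 passed in the 4 comparisons (limma, unadjusted p under 0.05 for 2, 2, 3 and 1 probes). CAMK2D, a subunit of CaMKII, had the widest step of these probes with shRNA #1: ILMN_2319544 read 5.46 and 5.84 with NS shRNA, 6.36 and 6.31 with shRNA #1, and 5.76 and 5.68 with shRNA #2. Both shRNA #1 arrays lay above the other 4, with a difference of 0.69 ± 0.14 that did not pass (adjusted p = 0.237). Its other tested probe, ILMN_1683415, gave 0.26 ± 0.11 with shRNA #1 (adjusted p = 0.433). The protein kinase C genes PRKCE and PRKCA were at 0.37 ± 0.14 and 0.13 ± 0.10 with shRNA #2, without passing. PRKCB was not detected on either shRNA #2 array. With that group set at the lowest detected level, PRKCB was 1.11-fold lower than the control, without passing (adjusted p = 0.247). The confidence interval of its measured ratio to the control ran from 0.598 to 0.978. The list medians were 0.0024 with shRNA #1 and -0.01 with shRNA #2.

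The likeness of other probes to PEA15 was measured by Pearson's r over the 6 arrays among 15311 tested probes with a gene name, as a description of shared array values. The highest r values were those of BPHL (0.994), TNFAIP8L1 (0.986), TIGD2, LOC105370068 and NONO (0.985, 0.985 and 0.984). BPHL, which encodes a hydrolase, read 9.11 and 9.16 with NS shRNA, 8.90 and 8.91 with shRNA #1, and 8.82 and 8.86 with shRNA #2, a difference of -0.29 ± 0.10 with shRNA #2 (limma adjusted p = 0.186). TNFAIP8L1, TIGD2 and NONO likewise differed from the control by no more than -0.25 with shRNA #2. LOC105370068 was not detected on either array of either hairpin. With shRNA #2 set at the lowest detected level, it was 1.39-fold lower than the control (limma adjusted p = 0.0404). The confidence interval of its measured ratio to the control ran from 0.524 to 0.756. Unlike the calls of PEA15 and RBCK1, this call was not followed under the alternatives. The lowest r values were those of MB (-0.993), CTNND1 and ARHGEF1 (both -0.988). CTNND1, which encodes the junction protein p120 catenin, was at 0.51 ± 0.10 with shRNA #2 (adjusted p = 0.0602). Among the partner probes r with PEA15 ranged from -0.54 for RPS6KA3 ILMN_1806294 to 0.64 for CASP8 ILMN_1673757.

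**Figure D5:**
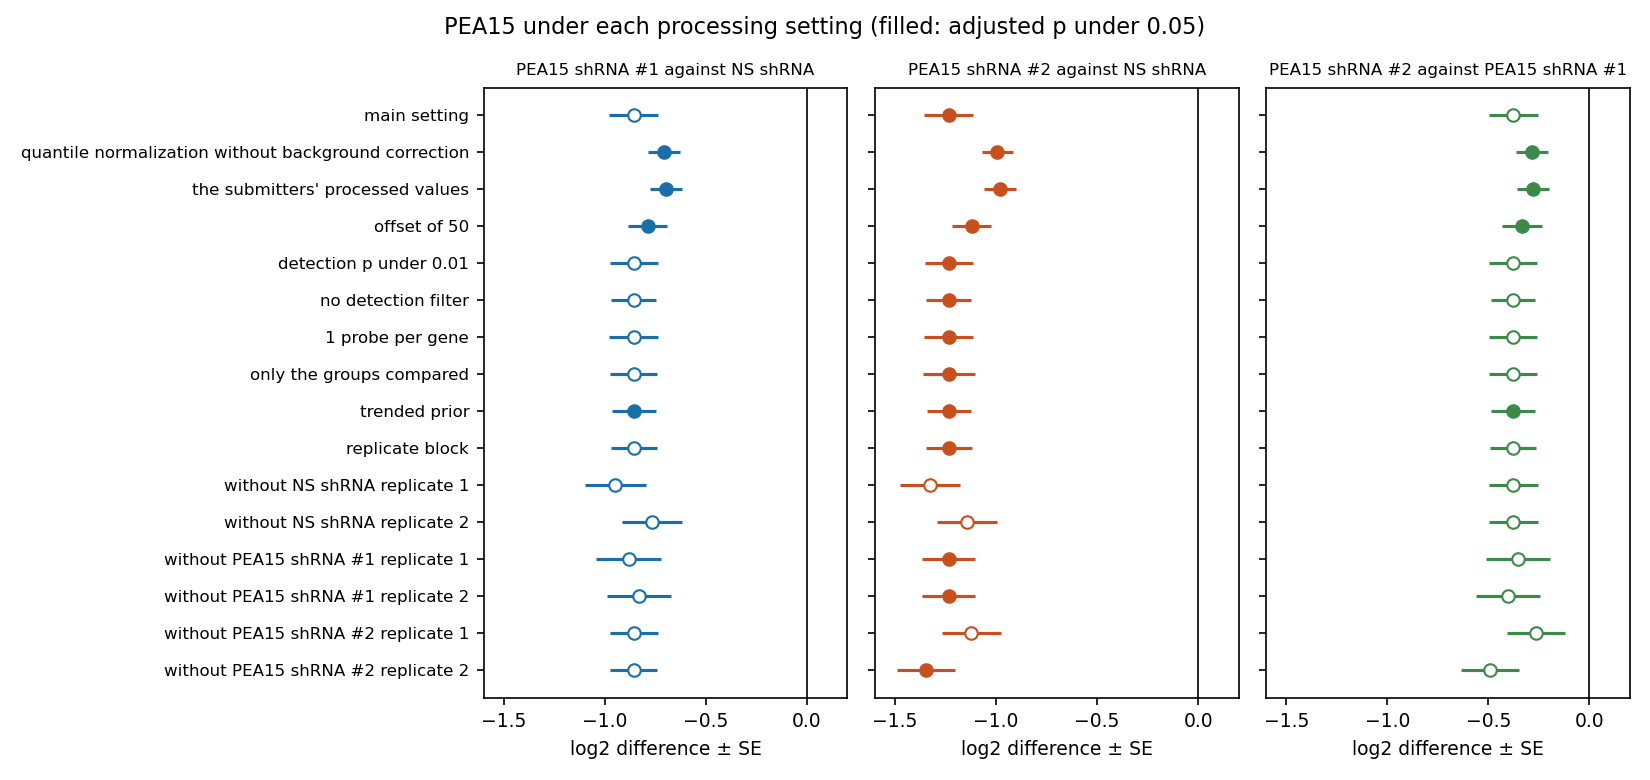
Log2 difference of PEA15 with its SE (horizontal axis) in 3 comparisons under the main setting and 15 alternatives (vertical axis). All values lie below 0, between -1.35 and -0.27, and filled points passed at an adjusted p of 0.05.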

How the data were processed

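Total RNA was labelled as biotinylated cRNA for Illumina arrays, per the labels' protocols. The deposited table holds a mean signal intensity and a detection p-value per probe and array, as the authors exported them. The deposited log2 values were made with lumi, per the submitters' processing notes, and rank each array's probes as its signal does. No source used here states their background step.

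Signals were background corrected and quantile normalized by neqc (limma 3.58.1, R 4.3.3, offset 16, log2), which understates folds of dim genes. Probes were tested where any 1 group had both its arrays below a detection p of 0.05. Where both arrays of a group missed a probe, its fold was taken with that group at the lowest detected level of each array. Such a fold carries no sampling error and is no lower limit of the change. The p-values and intervals beside it belong to the measured difference. One mean per group was fitted over all 6 arrays with lmFit and eBayes (3 residual and 4.67 prior degrees of freedom), and p-values were two-sided and Benjamini-Hochberg adjusted over 19781 probes, with a threshold of 0.05. The fit was also run on simulated data with independent normal noise, and its recovery of small changes is not given here. With 2 arrays a group their number limits the precision. Every probe of a gene was kept as its own result, and gene names came from the platform annotation. Names were compared through gene identifiers with RefSeq GRCh38.p14, where 0 needed an update. The rule for named genes took all member probes, up to 4 genes per pathway list with the smallest adjusted p in any comparison, and by likeness to PEA15 the 5 highest and 3 lowest correlations. Second probes of named genes were added after their values were seen. The members and lists were chosen with earlier results of these data known. Alternatives were quantile normalization alone, the submitters' values, an offset of 50, a detection p under 0.01, no filter, 1 probe per gene, only the groups compared, a trended prior, a replicate block and leaving out each array.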

Additional observations from a re-analysis of the deposited data

Results flagged for a closer look

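RBCK1 differed between the hairpins by the test of that difference itself. Its level with PEA15 shRNA #2 was above that with PEA15 shRNA #1 by 0.75 on probe ILMN_2406313 and by 0.56 on probe ILMN_1751330 (log2, limma adjusted p = 0.0173 and 0.0348, higher on 2 of 2 arrays). PEA15 and the 10 partner probes did not pass that test. The call was lost in 6 of 14 alternatives for ILMN_2406313, all of them runs without 1 array (adjusted p 0.000464 to 0.113 over the 14). For ILMN_1751330 it was lost in 9 of 15 (0.000767 to 0.162): without each of the 6 arrays, with the replicate block, in a fit of only the groups compared and when no probe was filtered.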

How the results depend on the processing

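PEA15 stayed below the control under all 15 alternatives with either hairpin. Its shRNA #1 difference passed with quantile normalization alone (-0.71), the submitters' values (-0.70), an offset of 50 (-0.79) and a trended prior (-0.86), and so did its difference between hairpins (-0.28, -0.28, -0.33 and -0.38), so that the count of member probes that passed rose from 0 to 1 in both comparisons. The cause was not tested. Leaving out 1 array moved the shRNA #1 difference from -0.95 to -0.77, the shRNA #2 difference from -1.35 to -1.12 (0 to 1 member probes passed), that between hairpins from -0.49 to -0.27, and that of the mean of both from -1.14 to -0.96 (0 member probes passed), with the lone array assumed to vary like the other groups. With no detection filter and with the replicate block the mean of both stayed at -1.05 without passing, and the count fell to 0. The labels do not say whether same-numbered arrays shared a culture or batch. Correlations of their deviations were -0.01, 0.05 and 0.08, which cannot decide it with 2 arrays a group. Partner probes passed in 0 of 580 combinations of probe, comparison and alternative, and 29 had the opposite sign.

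Counts over all probes moved by more than 1.5 times: from 3 to between 0 and 159 with shRNA #1, from 278 to between 15 and 1095 with shRNA #2, from 583 to between 21 and 2045 between hairpins, and from 21 to between 0 and 299 with the mean of both (limma). With the replicate block they were 0, 145, 382 and 0 (unadjusted p under 0.05 for 2334 and 2415 probes where 0). The share of higher calls with shRNA #2 was 203 of 278, against 611 of 1095 with quantile normalization alone. Of the 27 named list probes other than RBCK1, 11 passed in at least 1 comparison under 1 or more of 6 alternatives: quantile normalization alone, the submitters' values, an offset of 50, a trended prior, the stricter detection filter and 1 probe per gene. The cause was not tested. Probes near background limit CASP10, the dimmer RPS6KA3 probes and 2 CASP8 probes.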
